A study of Oryza sativa with 6 samples.

Results

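Rice SPL genes encode transcription factors of the SBP-box family (squamosa promoter binding protein-like), and 7 of them are described here. SPL7, SPL13, SPL14, SPL16, SPL17 and SPL18 were grouped as factors of tillering and grain shape, and SPL1 was set beside them. They were chosen by name, from symbols and synonyms in the annotation of the array, with SPL1 as contrast since its transcript is not a target of the microRNA miR156. A probe set could be assigned to 6 of the 7 genes, which gave 7 probe sets of the 57381 on the array (17905 genes are named there). SPL1, SPL7, SPL14 and SPL16 have 1 probe set each in the platform annotation. SPL13 (2 probe sets) and SPL17 (1 probe set) were reached only through the locus numbers LOC_Os07g32170 and LOC_Os09g31438 in the study's own list of changed transcription factors. That list holds only transcripts which passed the study's thresholds on these same arrays, so the values of SPL13 and SPL17 are given as a description without a test, and their direction is not independent evidence. SPL16 was found by both routes, and both gave the same probe set. No probe set was assigned to SPL18, and its transcript is not analysed here.

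The names need care, because SPL also stands for spotted leaf in rice. The synonym SPL7 belongs to the heat stress factor HSFA4D as well, the synonym SPL18 to the acyltransferase AT1, and SPL11 to a ubiquitin ligase. None of these encodes an SBP-box protein, and their probe sets were left out.

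SBP-box proteins bind promoters through a zinc-binding domain. Most rice members carry a site for miR156, which is abundant in young plants and holds these transcripts down, so that tillers form freely and the change to the adult phase is delayed. SPL14 (also called IPA1 or WFP) restrains tillering and promotes panicle branching, SPL17 is its close relative, and SPL7 also acts on tiller number. SPL13 (GLW7) promotes grain length and SPL16 promotes grain width.

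The tissue came from RP2068-18-3-5 (RP), an indica rice that resists biotype GMB1 of the Asian rice gall midge by a hypersensitive response. In the infested group (RP-I, 3 arrays), plants 15 days old were exposed to 25 female and 10 male midges, and 1 cm of stem was taken where the maggots fed, at 24, 48 and 72 h after infestation (hai). In the un-infested group (RP-UI, 3 arrays), RP plants of the same age and handling, without midges, gave the corresponding stem region at the same times, and all trays went into a humid chamber 48 h after the insects were released. Each array joins the 3 times of 1 tray, so 1 value per transcript covers them all, and in pooled tissue fewer cells of a type and less RNA per cell cannot be told apart. Signals are log2 values of the Affymetrix Rice Genome Array after RMA, so a difference of 1 is a 2-fold change, and levels of different probe sets are not compared with each other.

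RMA sets the arrays to a like level, and the array medians ran from 5.45 to 5.49 in RP-I and from 5.44 to 5.46 in RP-UI. Arrays RP-I 1 and RP-I 2 were closest to each other (r = 0.990 over 51532 probe sets), while RP-I 3 had its highest correlation, 0.968, with RP-UI 3, against 0.961 with RP-I 1 and 0.954 with RP-I 2. Deviations from the group means correlated above 0.1 between arrays of the same replicate number, so a second fit took that number as a block, and it is quoted beside the calls it changes. Unlike-numbered arrays also exceeded 0.1, at 0.295 for RP-I 2 with RP-UI 1 and 0.244 for RP-I 1 with RP-UI 2. The titles give numbers without stating a pairing, so pair differences and blocked calls depend on this choice. HOS59, a homeobox gene, was well detected on all arrays (11.11 to 11.42 in RP-I, 11.58 to 11.70 in RP-UI). It was the only gene with a probe set among the names listed as meristem markers. Its detection does not show how much meristem the tissue held. Markers of dividing cells had lower levels in RP-I, where all 5 probe sets of CYCB2;1, CYCB2;2, CDKB2;1 and PCNA had each RP-I array below each RP-UI array, as had 9.73% of all probe sets. Their mean level ran from 7.56 to 9.24 in RP-I and from 10.54 to 10.67 in RP-UI, with a median difference of -2.11. Of these, PCNA, the replication clamp, passed the test (-2.83, adjusted p = 0.0284 in limma). The blocked fit passed 4 of the 5 sets, PCNA (adjusted p = 0.0150), CYCB2;1 (0.0309), CDKB2;1 (0.0333) and 1 of the sets of CYCB2;2 (0.0401). Among all probe sets 0.328% passed as lower in RP-I in limma and 4.44% in the blocked fit. Of the 6 photosynthetic sets, both of CAB2R had lower means in RP-I (-1.32 and -1.59, the second with adjusted p = 0.0775 in limma and 0.0485 blocked) and the 4 of RBCS ran from 0.00 to 0.41. The part of dividing or photosynthetic cells in the SPL values was not tested.

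Among the 4 genes that could be tested, SPL16 had a lower and SPL1 a higher mean in RP-I, with no overlap between the groups, whereas SPL7 and SPL14 overlapped. By limma's moderated test with p adjusted over 51532 probe sets (Benjamini and Hochberg), 0 of these 4 passed an adjusted p of 0.05, against 0.563% of all probe sets (0.328% lower, 0.235% higher). At an unadjusted p of 0.05 or under there were 2 of 4, SPL16 and SPL1, against 14.2% of all probe sets. Once the replicate number was blocked, the same 2 passed at an adjusted p under 0.05, against 8.5% of all probe sets (4.44% lower, 4.06% higher). They were also the ones without overlap, which 18.9% of all probe sets showed, 9.73% with RP-I below and 9.12% with RP-I above. SPL16 alone was lower at an unadjusted p of 0.05 with a change of at least 2-fold, against 2.9% of all probe sets. With so few members these shares describe the genes and are no test of the group.

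SPL16, the grain width factor, had log2 signals of 6.31, 5.68 and 6.17 in RP-I, against 7.40, 7.02 and 7.48 in RP-UI. Each RP-I array lay below each RP-UI array, and the gap between the groups was 0.71. The mean was 6.05 ± 0.33 in RP-I and 7.30 ± 0.24 in RP-UI (SD, n = 3), a log2 fold change of -1.25 (standard error, SE, 0.22, 95% interval -1.78 to -0.71), so that the signal in RP-I was 0.421 times that in RP-UI. The difference missed the threshold in limma (adjusted p = 0.0709, unadjusted p = 0.00106) and passed it with the replicate block (adjusted p = 0.0168). It was -1.09, -1.34 and -1.31 in replicate pairs 1, 2 and 3. The size thus varied little from pair to pair. Without both arrays numbered 3 it was -1.22 and missed the threshold (adjusted p = 0.0664 in limma).

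SPL1, the contrast gene, had a higher mean in RP-I. Its signals were 9.99, 10.13 and 10.14 in RP-I, against 9.40, 9.06 and 9.46 in RP-UI, and all RP-I arrays lay above all RP-UI arrays. The RP-I arrays were close together, with a mean of 10.09 ± 0.08, against 9.31 ± 0.22 in RP-UI (SD, n = 3). The log2 fold change of 0.78 (SE 0.16, 95% interval 0.40 to 1.16) corresponds to 1.72 times the RP-UI signal. The adjusted p was 0.0866 in limma (unadjusted p = 0.00216) and 0.0431 with the replicate block. In pairs 1, 2 and 3 the difference was 0.59, 1.07 and 0.68, and without both arrays numbered 3 it was 0.83 (adjusted p = 0.0680 in limma).

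SPL14, which restrains tillering, had the same mean in both groups to 2 decimals, with a wide spread. Its signals were 7.31, 6.98 and 8.88 in RP-I, against 7.18, 7.70 and 8.29 in RP-UI. In both groups the array numbered 3 was the highest, and the groups overlapped. The means were 7.72 ± 1.02 in RP-I and 7.72 ± 0.55 in RP-UI (SD, n = 3), with a log2 fold change of 0.00 (SE 0.54, adjusted p = 1.00 in limma and with the block). The 95% interval of -1.30 to 1.30 includes changes of more than 2-fold in either direction, so an unchanged level was not shown. Between pairs even the sign differed, with 0.12, -0.72 and 0.60 in pairs 1, 2 and 3. Array RP-I 3 decides much of this value: without it the log2 fold change was -0.58, and without both arrays numbered 3 it was -0.30.

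SPL7, also of tiller number, had signals of 5.73, 5.66 and 5.85 in RP-I, against 5.71, 6.09 and 6.69 in RP-UI. The RP-I arrays lay within a range of 0.19 and the RP-UI arrays within a range of 0.98, and RP-UI 1 fell inside the RP-I range. The log2 fold change was -0.42 (SE 0.26, 95% interval -1.04 to 0.21, adjusted p = 0.596, or 0.300 with the block). In pairs 1, 2 and 3 the difference was 0.03, -0.43 and -0.84. Array RP-UI 3 carried much of the difference, which was -0.15 when that array was left out.

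**Figure D1:**
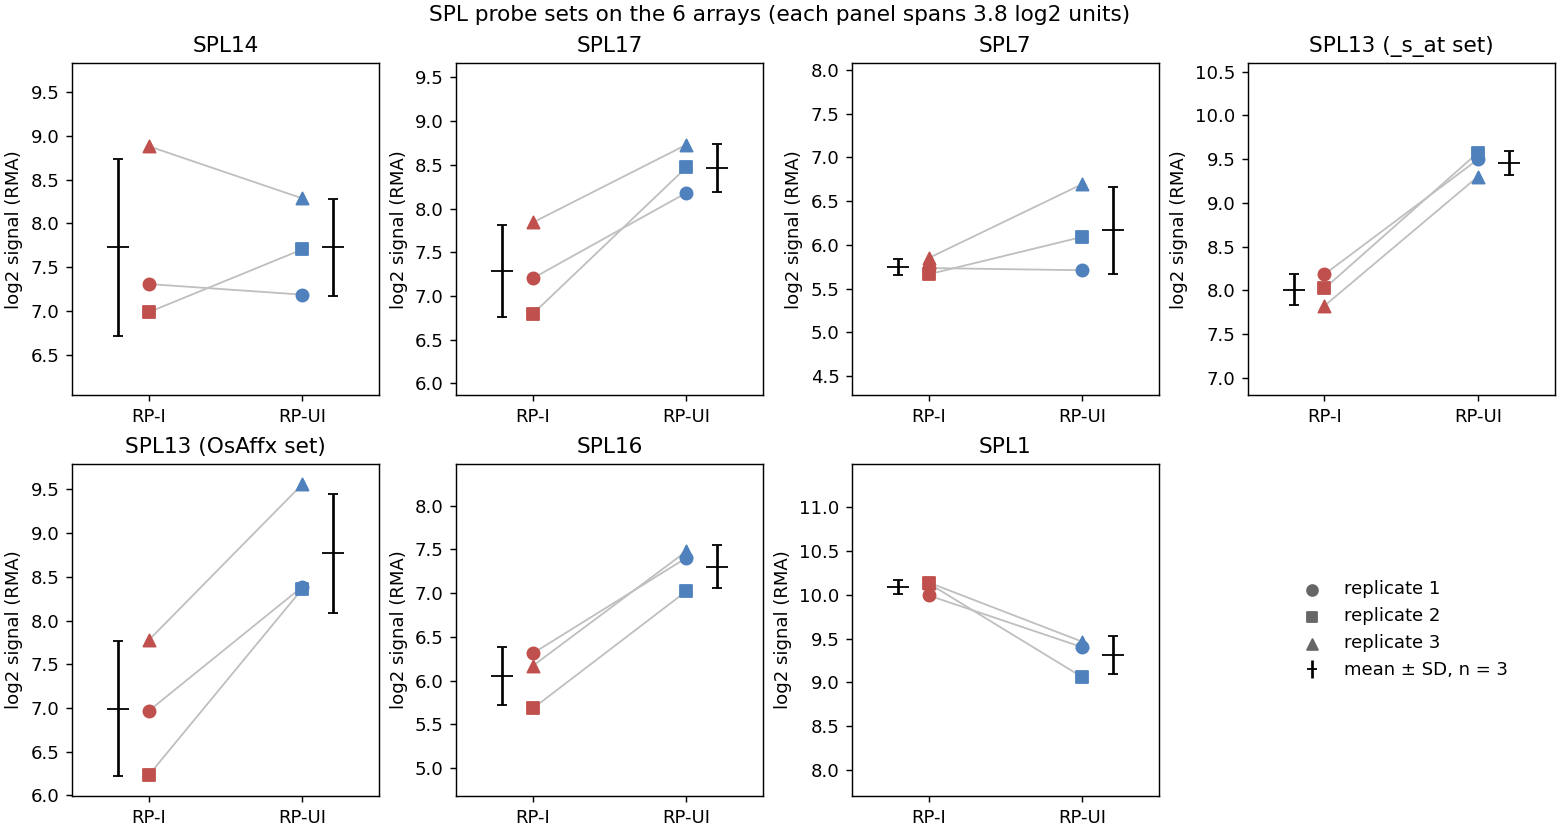
Log2 signal (vertical axis) of each SPL probe set on the RP-I arrays (red, left) and the RP-UI arrays (blue, right), with grey lines joining arrays of the same replicate number and bars giving the mean ± SD of 3 arrays. SPL16, SPL17 and both probe sets of SPL13 sit lower in RP-I without overlap and SPL1 sits higher, while SPL14 and SPL7 overlap and the arrays numbered 3 (triangles) are the highest for SPL14 in both groups.

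SPL13, the grain length factor, is read by 2 probe sets, which the study's list had already selected as lower in RP-I. The first (suffix s_at, a set that can match more than 1 transcript) had signals of 8.18, 8.02 and 7.82 in RP-I, against 9.50, 9.57 and 9.30 in RP-UI. The second (prefix OsAffx) had signals of 6.97, 6.23 and 7.78 in RP-I, against 8.38, 8.36 and 9.56 in RP-UI. In both sets each RP-I array lay below each RP-UI array, but the spread differed, with an SD of 0.18 in RP-I and 0.14 in RP-UI for the first and of 0.77 in RP-I and 0.68 in RP-UI for the second. Their log2 fold changes were -1.45 (SE 0.16) and -1.78 (SE 0.48). By pair the first set gave -1.31, -1.55 and -1.48 and the second -1.42, -2.13 and -1.78. The arrays numbered 3 were the lowest of their group in the first set and the highest in the second, so the 2 sets disagree on the order of arrays within a group while they share the direction between groups.

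SPL17, the close relative of SPL14, had signals of 7.20, 6.80 and 7.84 in RP-I, against 8.18, 8.47 and 8.73 in RP-UI. No RP-I array reached the lowest RP-UI array, with a gap of 0.34. The log2 fold change was -1.18 (SE 0.30), and by pair it was -0.98, -1.67 and -0.89. Like SPL13, SPL17 entered through a list chosen for such differences on these arrays.

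Within the groups SPL14 and SPL17 went up and down together. Their deviations from the group means correlated with r = 0.978 over the 6 arrays, which share the replicate number 3 as the high value. Between SPL14 and the first SPL13 set, whose arrays numbered 3 were the lowest, the value was -0.774. The second SPL13 set had its arrays numbered 3 the highest, as SPL14 had, and was not put into these correlations. The negative value therefore holds for the first set only. Over the whole profile of 6 arrays, the first SPL13 set and SPL16 were alike (r = 0.907), as were SPL16 and SPL17 (r = 0.896). SPL1 ran against the first SPL13 set (r = -0.971), and the 2 SPL13 sets correlated with each other at r = 0.744. All these correlations rest on 6 points in 2 groups and are given as a description. For the whole profiles a difference between the groups alone can give a high value. The within-group values are free of that difference, but in them the arrays numbered 3 were the highest or lowest of their group.

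Setting each member against SPL1 on the same array asks whether its change differs from that of the contrast gene. For SPL16 the change minus that of SPL1 was -2.03 on the log2 scale, and no RP-I array overlapped with an RP-UI array. For SPL7 the value was -1.20, again without overlap, although SPL7 alone had overlapped. For SPL14 it was -0.78, with overlap, and it rested much on single arrays, at -1.33 without RP-I 3 and -0.39 without RP-I 2. An exact two-sided permutation test over the 20 assignments of the 6 arrays gave p = 0.1, 0.1 and 0.3 for SPL16, SPL7 and SPL14 (adjusted p = 0.15, 0.15 and 0.3 over 3 comparisons). With 3 arrays against 3 the smallest p possible is 0.1, so none could reach 0.05. For SPL17 the corresponding value was -1.96, and for the SPL13 sets it was -2.23 and -2.56, described without a test. Of the 3 genes tested, each had a lower value in RP-I against SPL1 in all 3 replicate pairs. SPL1 itself was higher in RP-I in all 3 pairs (0.59, 1.07 and 0.68), and this rise is part of every value. Taken alone, SPL14 gave 0.12, -0.72 and 0.60 by pair and SPL7 gave 0.03, -0.43 and -0.84. SPL16 alone was lower in RP-I in all 3 pairs.

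**Figure D2:**
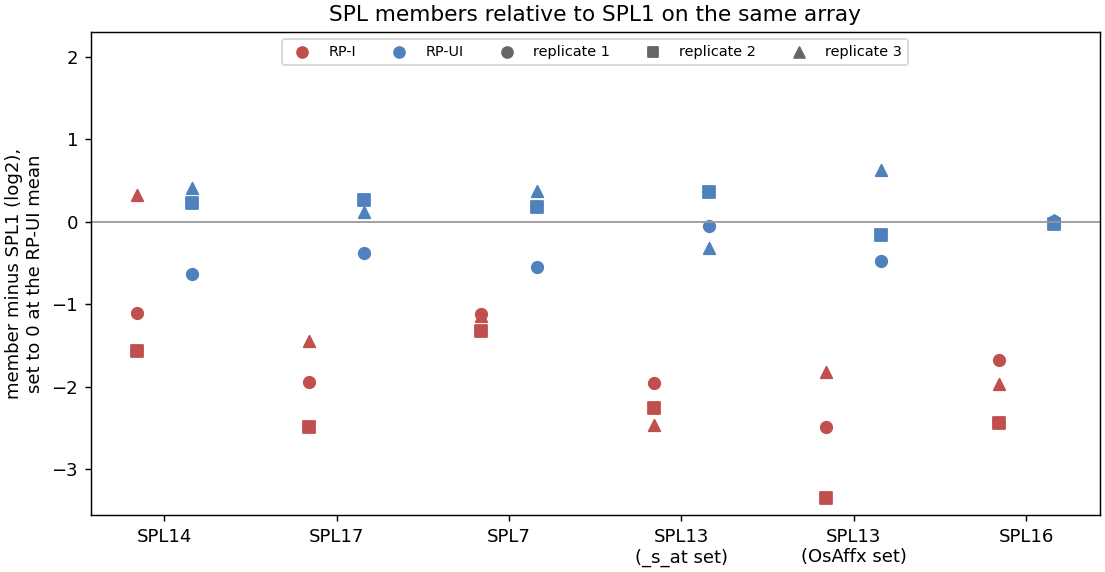
Log2 signal of each member minus that of SPL1 on the same array, set to 0 at the RP-UI mean (vertical axis), for RP-I arrays (red) and RP-UI arrays (blue), with 1 marker shape per replicate number. RP-I lies below RP-UI without overlap for all sets shown except SPL14, whose RP-I array 3 lies among the RP-UI arrays. SPL1 was itself higher in RP-I, and this is part of every difference shown.

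The rest of the SPL family gives the context. Of the other SPL genes, 7 have probe sets in the annotation (11 sets, all kept), and 0 of 11 passed an adjusted p of 0.05 in limma, with 1 below an unadjusted p of 0.05, against 0.563% and 14.2% of all probe sets. The blocked fit passed 2 of 11, SPL8 and SPL15, against 8.5% of all probe sets. A lower mean in RP-I was seen in 4 and a higher mean in 7, with a median log2 fold change of 0.14, against 0.01 over all probe sets, of which 48.6% had a lower mean. SPL4 alone gave 4 of the 7 higher sets. SPL8, which forms the ligule and is also called LG1, had signals of 7.69, 7.28 and 7.23 in RP-I, against 8.14, 8.18 and 8.08 in RP-UI. Its log2 fold change was -0.73 (SE 0.17) without overlap (adjusted p = 0.106, or 0.0470 with the replicate block). SPL15 had signals of 11.21, 10.59 and 12.40 in RP-I, against 10.73, 9.70 and 11.60 in RP-UI. The groups overlapped, yet RP-I was higher in all 3 pairs (difference 0.73 with SE 0.62, adjusted p = 0.747, blocked 0.0446).

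Targets of miR156 in the rest of the family had means on both sides. The other targets SPL2, SPL4 and SPL12 had a higher mean in RP-I in 5 of 6 probe sets, with a median of 0.20, and 0 of 6 reached an unadjusted p of 0.05. SPL4 alone gave 4 of these 5 sets, so the count is not one of separate genes. SPL2 had a value of 0.19 (adjusted p = 0.832) and SPL12 a value of -0.43 (adjusted p = 0.576). The 4 sets of SPL4 ran from 0.14 to 0.55 (adjusted p from 0.494 to 0.931), and 3 of them were higher in RP-I in every pair. Among genes that are not targets, SPL6 had values of -0.38 and -0.05 in its 2 sets (adjusted p = 0.861 and 0.95), and SPL9 had a value of 0.07 (adjusted p = 0.957). SPL1 and SPL8, both outside the reach of miR156, had opposite signs. Whether targets and other genes differ was not tested, and miR156 itself was not measured.

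**Figure D3:**
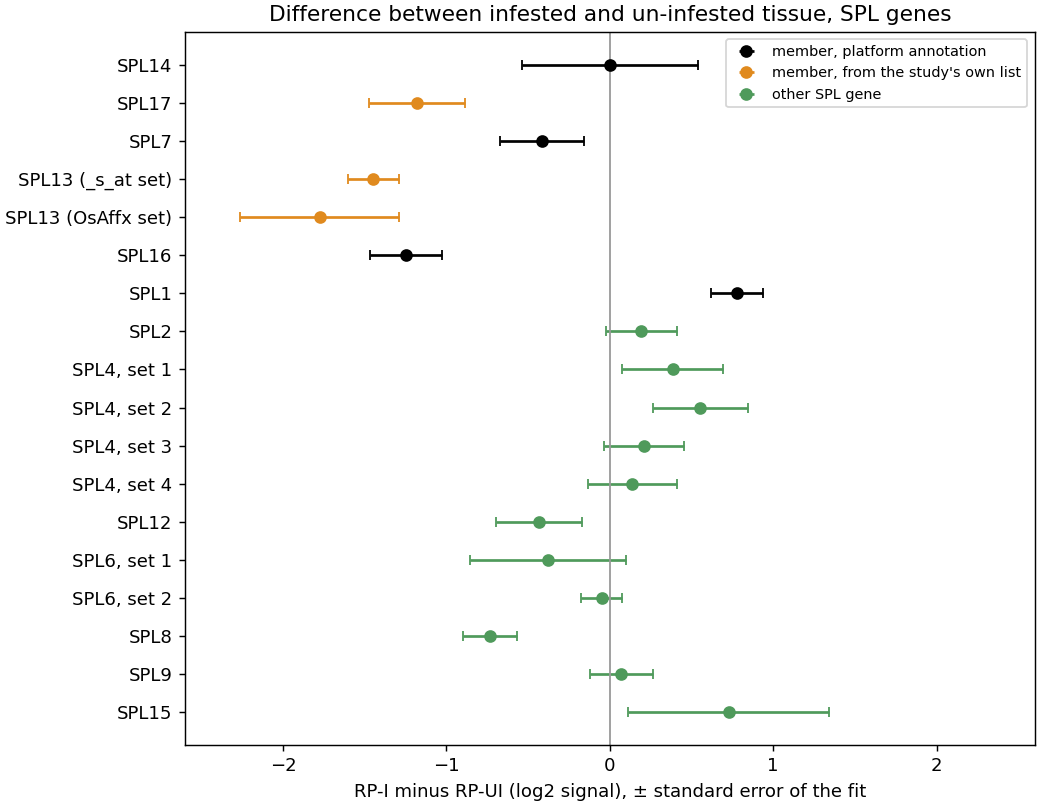
Log2 fold change of RP-I over RP-UI (horizontal axis) with its SE for each probe set of the SPL genes: members from the platform annotation (black), members from the study's own list (orange) and other SPL genes (green). SPL16, SPL17 and SPL13 lie below -1, SPL1 at 0.78, and the other targets SPL2, SPL4 and SPL12 between -0.43 and 0.55.

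Genes of tiller number and strigolactone signalling were read by 11 kept probe sets of 10 genes. Strigolactones restrain the outgrowth of tiller buds. Of the 11 sets 0 passed an adjusted p of 0.05 in limma, against 0.563% of all probe sets, and the median log2 fold change was 0.09. With an unadjusted p not above 0.05, 4 were higher and 2 lower, against 6.58% higher and 7.65% lower of all probe sets. The blocked fit passed 1 of 11 (D14), against 4.06% higher of all probe sets. D14, the strigolactone receptor, had signals of 11.22, 11.40 and 12.23 in RP-I, against 9.66, 10.26 and 11.01 in RP-UI. Each RP-I array was above each RP-UI array, and the log2 fold change was 1.31 (SE 0.41), with an adjusted p of 0.210 in limma and of 0.0172 with the replicate block. The homeobox gene HOX10 had a value of 0.78 in one set (SE 0.75, adjusted p = 0.791) and of -0.55 in another (SE 0.19, adjusted p = 0.248), so its sets disagree.

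Genes of grain size and shape had lower means in RP-I in 10 of 13 probe sets (12 genes), with a median log2 fold change of -0.38. None passed an adjusted p of 0.05 in limma (0.563% of all probe sets did), with 5 lower and 1 higher with an unadjusted p not above 0.05, against 7.65% and 6.58% of all probe sets. GIF1, a cell wall invertase of grain filling, had signals of 6.81, 5.59 and 6.34 in RP-I, against 7.69, 7.63 and 8.06 in RP-UI (difference -1.54 with SE 0.32, adjusted p = 0.0910, blocked 0.0298). BU1, a helix-loop-helix protein of brassinosteroid signalling, had a value of 1.29 (SE 0.45, adjusted p = 0.259) and no overlap. With the block 3 of 13 passed, all lower in RP-I, against 4.44% of all probe sets. They were GIF1 and also GRF4 (-0.81) and the brassinosteroid receptor D61 (-0.93), both named after their values were seen. GRF4 is a growth-regulating factor that enlarges the grain.

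Genes that follow miR156 and SPL in the phase change, those of miR172 targets and flowering, were kept in 10 of 15 probe sets, and 0 of 10 passed in limma, against 0.563% of all probe sets. With an unadjusted p not above 0.05, 2 were higher (6.58% of all probe sets), and the blocked fit passed 1 of 10, TOE1 (4.06% higher of all probe sets). The mean was higher in RP-I in 8 of 10, with a median of 0.25, while 48.6% of all probe sets had a lower mean. The kept sets of MADS14, MADS15 and HD3A had low signals (percentiles 20.2 to 38.7) and small changes, from -0.03 to 0.27. The sets of SHAT1 gave -0.09, 0.46 and 0.29, so they disagree in sign. MADS18, a flowering MADS-box factor, had signals of 10.55, 10.75 and 9.06 in RP-I, against 8.76, 9.06 and 8.68 in RP-UI (log2 fold change 1.29, SE 0.45, adjusted p = 0.255), and only RP-I 3 came within the RP-UI range. TOE1, an AP2 factor, had a value of 0.70 (SE 0.25), with an adjusted p of 0.272 in limma and of 0.0497 with the block.

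**Figure D4:**
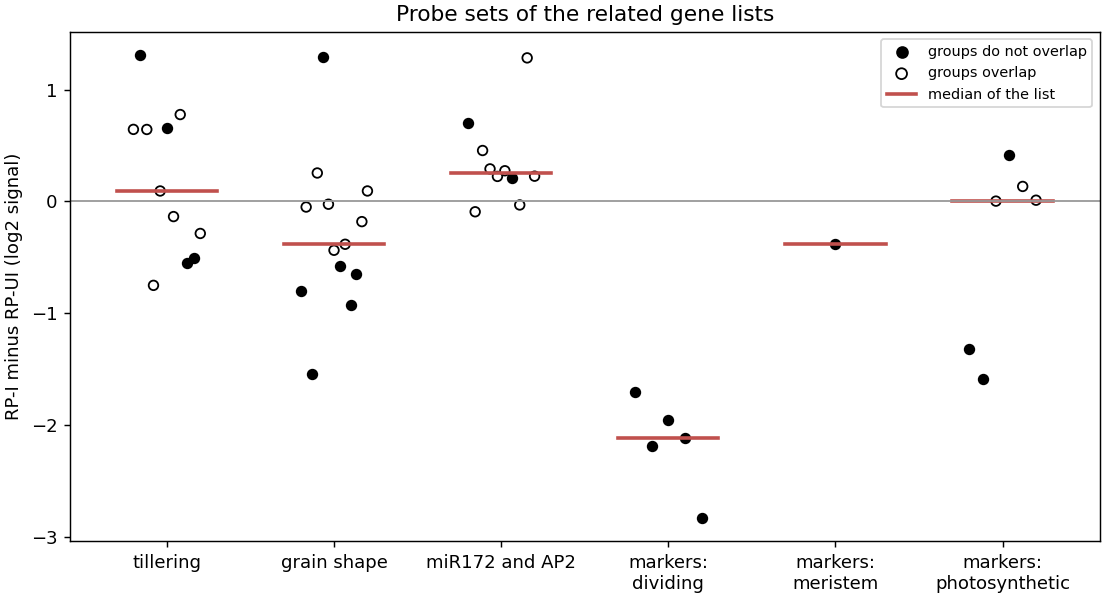
Log2 fold change of RP-I over RP-UI (vertical axis) for each kept probe set of the gene lists, filled where the groups do not overlap and open where they do, with the median of each list as a red line. The dividing-cell markers lie between -2.83 and -1.71, and the grain shape list has a median of -0.38.

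The genes whose profile over the 6 arrays was most like the median of SPL7, SPL13, SPL14, SPL16 and SPL17 were AIP1 (r = 0.994), Roc2 (also listed as GL2-2, r = 0.990), IAA14 (r = 0.988), TBL13 (r = 0.985) and GRF5 (also listed as grf3, r = 0.985). This median was lower in RP-I by a log2 difference of -0.89. SPL13 and SPL17 in it were selected as changed on these arrays, and SPL14 alone had nearly equal group means. Lower signals of these genes in RP-I are therefore no independent evidence. IAA14 is an auxin repressor with mean signals of 7.04 in RP-I and 8.77 in RP-UI, and GRF5 is a growth-regulating factor with 7.68 in RP-I and 8.64 in RP-UI. Closest to SPL1 were a gene named only as a peroxidase (LOC4344277, r = 0.998), BADH1 (r = 0.996) and DRB1 (r = 0.992). BADH1, a betaine aldehyde dehydrogenase, had mean signals of 11.17 in RP-I and 9.92 in RP-UI. Of 3046 named probe sets compared, 42 and 58 had an r over 0.95 with the median profile and with SPL1, so a high r over 6 arrays is shared by many genes.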

How the data were processed

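The authors made the deposited values with RMA (background correction, quantile normalization, summary per probe set) as log2 signals. Their methods name GeneSpring for this step, while Affymetrix Expression Console and RMA stand in the submitters' processing notes. Whether tissue or RNA of the 3 times was pooled differs between the descriptions. Nothing further was done to these deposited log2 values apart from removing 123 control probe sets. Probe sets were kept whose mean reached the 10th percentile (51532), and all 7 SPL sets passed. RP-I was compared with RP-UI by limma 3.58.1 in R 4.3.3 (lmFit, eBayes), with Benjamini and Hochberg adjustment over all kept sets. The script was tested on simulated data. Tables and figures used Python 3.11.15, pandas 2.3.3, numpy 2.4.6 and matplotlib 3.10.9.

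Names came from the platform annotation and a RefSeq table (ASM3414082v1). 22436 probe sets name 1 gene, 95 several and 34850 none. The lists of tillering, grain shape and phase change genes held 31, 37 and 20 names, of which 10, 12 and 7 genes have a probe set. Names of other genes with the same symbol were left out by hand. The members and lists were chosen with earlier results of these data known. From each list the members that passed, otherwise the 2 largest changes, are named. No sequence of these genes was at hand.

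The replicate numbers come from the titles. Deviations of same-numbered arrays from the group means correlated with r = 0.521, 0.308 and 0.624, each over 0.1, so the block is reported. Because deviations of 3 arrays sum to nothing, the arrays numbered 3 alone could raise all 3 values. RP-I 2 with RP-UI 1 gave 0.295 and RP-I 1 with RP-UI 2 gave 0.244. For RP-I 2 the same-numbered array was thus hardly closer than RP-UI 1. Replicates were separate trays, and 3 arrays per group limit the precision. Of 6 planned comparisons with SPL1, 3 were tested, because SPL13 and SPL17 were selected on these arrays and SPL18 had no probe set. Alternatives were other filters and scalings, an intensity trend, the block, the study's thresholds and leaving out arrays.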

Additional observations from a re-analysis of the deposited data

How the results depend on the processing

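With the replicate block the log2 fold changes of SPL1 (0.78) and SPL16 (-1.25) passed an adjusted p of 0.05, which made 2 SPL calls, and 2, 1, 3 and 1 calls among the other SPL, tillering, grain shape and miR172 genes. It changed no call of SPL7 or SPL14. At an unadjusted p of 0.05 or under with a 2-fold change, SPL16 (-1.25) was the 1 SPL gene to pass. Over all probe sets 290 were called in limma, 126 with arrays centred on their median, 87 with an intensity trend, 4379 with the block, 2865 at the unadjusted threshold with a 2-fold change and 2492 without both arrays numbered 3, a setting added after seeing the data. In that last setting SPL calls stayed at 0.

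Leaving out single arrays gave 0 SPL calls, and 0 to 280 calls over all probe sets (280 without RP-I 3, 0 without any other array). Calls ran from 0 to 0 among the other SPL genes and from 0 to 1 in the miR172 list (MADS18 without RP-I 3). SPL1 ran from 0.66 to 0.86 (adjusted p from 0.119 to 0.282) and SPL16 from -1.39 to -1.06 (adjusted p from 0.0872 to 0.274). SPL14 had a log2 fold change of 0.035 after a further quantile normalization and ran from -0.58 to 0.37, with 0.21 without RP-I 1, 0.37 without RP-I 2 and 0.28 without RP-UI 3; the cause was not tested. The list medians ran from 0.025 to 0.18 (other SPL), -0.17 to 0.29 (tillering, and -0.016 without a filter) and -0.51 to -0.14 (grain shape). For the members against SPL1, the mean over probe sets gave no other value, since SPL7, SPL14, SPL16 and SPL1 have 1 set each. A sign-flip test over the 3 pairs cannot go below 0.25, which all 3 reached.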
